A study of Mus musculus with 28 samples.

Results

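The 50 genes described here encode proteins of mitosis and cytokinesis, and they were followed through the first days of spermatogonial differentiation in mice with and without Stra8. They are the 50 gene symbols of a fixed list that were present in both deposited count tables, out of 43280 features. The rule that picks them uses no measured value, but the list was chosen with earlier results of these data known. By step, 8 act in mitotic entry, 10 in spindle assembly, 17 at the kinetochore and spindle checkpoint, 7 in chromosome condensation and 8 in cytokinesis. Germ cells with the PIWIL2-eGFP reporter, a fluorescent marker named for the germline protein PIWIL2, were sorted from testes and their polyadenylated RNA was sequenced. The mice came from a C57BL/6 x 129s4/SvJae mix and were labelled KO or WT for Stra8. Mice of both genotypes carried the reporter and were given WIN 18,446, an inhibitor of retinoic acid synthesis, for 7 days. Collection followed at that point, called 0 h here, or 12, 18, 48, 72, 96 or 120 h after a dose of retinoic acid, which made 14 groups of 2 libraries and 28 libraries in all. Ages of the mice, and whether both libraries of a group came from separate animals, were not given in the labels, so every p-value measures the spread between these libraries, which may be technical.

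Retinoic acid starts the differentiation of spermatogonia, which then divide by mitosis several times before meiosis, and STRA8 is a DNA-binding protein induced by retinoic acid that is best known for its role at meiotic entry. In a mitotic cycle, cyclin A and cyclin B with the kinase CDK1 bring cells into division, motor proteins and Aurora kinases build the spindle, and the checkpoint holds anaphase until kinetochores are attached. Condensins and topoisomerase II shape the chromosomes, and centralspindlin, PRC1 and anillin cut the cell apart. The transcripts of most of these genes rise in G2 phase and fall after division, under promoters bound by the DREAM and MuvB complexes, B-MYB and FOXM1, and many of those promoters hold a CCAAT box and an element called CHR (cell cycle genes homology region).

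Levels are in CPM, a count divided by the total of its library and scaled to 1000000. Each pair of values gives the library of the first count table and then that of the second. Totals were 914126 to 9517360 reads in KO libraries and 5757921 to 10147341 in WT libraries, and no member had fewer than 15 reads in any library. The KO libraries of the second table at 72, 96 and 120 h stood apart, with 1079696, 914126 and 1031189 reads in all. Their correlations with the other library of their group were 0.893, 0.876 and 0.907, against 0.950 to 0.982 in the other groups. A deposited CPM table held other values for these 3 groups, from which 4479729, 4190650 and 4122223 whole reads were recovered, and no source here says which version should be used. Between the versions 1 member differed widely: Ccnb1 had 34.3, 51.4 and 23.3 CPM in the count table and 94.0, 127 and 97.3 CPM in the recovered reads. The targeted gene, Stra8, had 30.7 and 25.9 CPM at 12 h in KO cells, against 712 and 1042 CPM in WT cells, and which part of it the KO lacks is not in the labels. The first-table KO library at 48 h held 62.1 CPM of Stra8, and its partner held 2.09 CPM. The germ cell marker Ddx4 was at 336 to 562 CPM in KO libraries and at 295 to 597 CPM in WT libraries. Of 5 germ cell markers, 3 were higher and 1 lower in both KO libraries at 120 h (30.3% and 25.1% of all genes tested). Their sums were 4113 and 4025 CPM in KO cells, against 2860 and 2837.5 CPM in WT cells. At 0 h the sums were 3942 and 4264 CPM in KO cells, against 3718 and 4263 CPM in WT cells. Piwil2 was among the higher at 120 h, with 2638 and 2192 CPM in KO cells, against 1438 and 1052 CPM in WT cells. Leydig, leukocyte and erythroid markers each summed to at most 15.7 CPM in any library, and Sertoli markers reached 865 CPM in the second-table KO library at 72 h. Endothelium markers reached 41.9 CPM, in the first-table WT library at 12 h. Spermatocyte and spermatid markers reached 434 CPM, in the first-table KO library at 18 h and in the second-table WT library at 120 h. Exons of Ccna2, Cdc25c, Plk1, Ube2c, Ncapg, Prc1, Kif20a and Kif4 overlap those of a neighbouring gene over more than 5% of their length, and pseudogenes of Ccnb1, Ccnb2, Kif22 and Kif4 are annotated. How reads of such places were counted is not stated, so the counts of these genes are less certain.

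Promoters of the members shared sequence that played no part in choosing them. RefSeq windows of 300 bases on GRCm38.p6, 250 before and 50 after the start of transcription, were found for 41 of the 50 genes. The CHR letters TTTGAA or TTCGAA, read on both strands, stood in 33 of the 41 windows (80.5%), against 19.4% of 27025 genes. The CCAAT box, CCAAT on both strands, stood in 30 of the 41 (73.2%, against 37.9% of all genes), and both elements together in 28 (68.3%, against 7.70%). An E2F site was searched on both strands as TTGGCGC, or as TTCGCGC, or as TTCCCGC, and could share letters with a reversed CCAAT box. It stood in 10 of 41 (24.4%, against 8.21%). In 91 windows of other mitosis genes CHR letters stood in 41.8%, the CCAAT box in 58.2% and E2F letters in 25.3%. The E2F share of the members was thus close to that of other mitosis genes. In 45 DNA replication genes, 36 of them with a window, E2F letters were commoner than CHR letters (55.6% and 22.2%). The CCAAT box stood in 58.3% of those windows. All 7 cytokinesis genes with a window held a CHR, and among the 33 members with one the nearest CHR lay within 50 bases of the start in 30. It lay after the start in 20 of the 33. These matches are letters in a window, not measured binding.

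**Figure D1:**
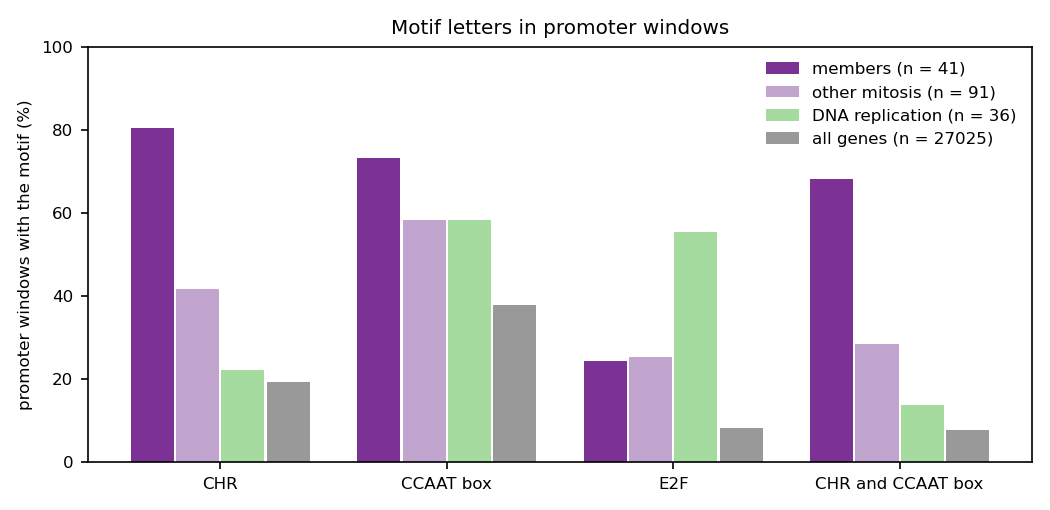
Share of promoter windows (%, y axis) that hold CHR, CCAAT box or E2F letters, or both CHR and CCAAT box, for the 41 members with a window, 91 other mitosis genes, 36 DNA replication genes and all 27025 genes with a window. CHR letters stood in 80.5% of member windows and 19.4% of all windows.

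The 250 bases before the start are shown for the ends of the response: Plk1, Mki67, Cdc25b and Kif4 had the largest changes at 120 h in WT cells among called members with a window, and Mad2l1 had the lowest. Capitals mark CHR, CCAAT box and E2F letters. Plk1 lies at chr7:122159185-122159434, plus strand, Mki67 at chr7:135716380-135716629, minus strand, Cdc25b at chr2:131186698-131186947, plus strand, Kif4 at chrX:100625815-100626064, plus strand and Mad2l1 at chr6:66534971-66535220, plus strand.
Plk1: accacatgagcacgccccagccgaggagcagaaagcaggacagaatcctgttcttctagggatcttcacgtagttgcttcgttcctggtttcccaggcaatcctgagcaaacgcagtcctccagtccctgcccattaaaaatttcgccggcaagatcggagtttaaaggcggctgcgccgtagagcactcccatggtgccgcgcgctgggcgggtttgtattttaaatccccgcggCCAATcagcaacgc
Mki67: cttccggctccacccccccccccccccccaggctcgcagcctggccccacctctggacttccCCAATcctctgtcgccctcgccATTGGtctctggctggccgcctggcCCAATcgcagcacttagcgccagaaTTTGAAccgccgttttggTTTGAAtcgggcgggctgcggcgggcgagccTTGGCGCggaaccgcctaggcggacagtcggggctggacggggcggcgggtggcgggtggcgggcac
Cdc25b: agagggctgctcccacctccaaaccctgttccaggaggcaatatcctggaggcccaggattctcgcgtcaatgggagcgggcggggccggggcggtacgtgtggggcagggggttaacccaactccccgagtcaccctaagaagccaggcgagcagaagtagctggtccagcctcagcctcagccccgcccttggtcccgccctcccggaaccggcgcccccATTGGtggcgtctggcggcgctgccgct
Kif4: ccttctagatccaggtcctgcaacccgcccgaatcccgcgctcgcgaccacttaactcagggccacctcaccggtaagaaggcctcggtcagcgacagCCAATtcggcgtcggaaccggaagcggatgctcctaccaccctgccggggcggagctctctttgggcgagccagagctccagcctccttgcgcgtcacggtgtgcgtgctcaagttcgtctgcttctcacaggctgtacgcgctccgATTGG
Mad2l1: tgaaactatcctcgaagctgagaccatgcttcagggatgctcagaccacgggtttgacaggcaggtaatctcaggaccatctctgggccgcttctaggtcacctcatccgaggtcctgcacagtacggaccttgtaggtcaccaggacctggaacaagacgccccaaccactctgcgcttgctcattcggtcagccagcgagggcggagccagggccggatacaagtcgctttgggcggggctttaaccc
Mki67 holds 3 CCAAT boxes, 1 of them reversed, followed by 2 CHRs and an E2F site. Kif4 holds 2 CCAAT boxes, Plk1 and Cdc25b hold 1 each, and the Mad2l1 stretch holds none of these letters. The CHRs of Plk1, Kif4 and Cdc25b lie after the start and so outside these stretches.

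The CHR nearest the start is shown in 30 bases, with the motif in capitals and on the strand that reads it, for the entry, spindle, checkpoint and cytokinesis genes with the largest WT change among those with a CHR, and for Ndc80, whose WT change at 120 h was the smallest among members with a CHR. These are Plk1 (chr7:122159453-122159482, plus strand), Kif15 (chr9:122951050-122951079, minus strand), Ube2c (chr2:164769888-164769917, minus strand), Kif4 (chrX:100626072-100626101, plus strand) and Ndc80 (chr17:71526811-71526840, plus strand).
Plk1: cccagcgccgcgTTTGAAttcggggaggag
Kif15: gatggccgcagaTTTGAAtttggcgcccca
Ube2c: ccgccgcccgcgTTTGAAttgcaaccctcc
Kif4: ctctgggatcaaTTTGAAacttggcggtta
Ndc80: aacccaaggcggTTTGAAttttaaagtttc
The set was chosen after values were seen. Ndc80 carries the element too, and at 120 h in WT cells the log2 fold change was 0.18 for Ndc80 and 2.61 for Plk1. Whether the change differed between members with and without a CHR was not tested.

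In WT cells the mitosis genes rose in a first group within 12 h and in a larger one by 96 and 120 h. Against 0 h, 10 of the 50 were called higher at 12 h (5.36% of 17543 genes tested), 11 at 18 h (5.08%), 17 at 48 h (6.15%), 16 at 72 h (6.56%), 32 at 96 h (12.6%) and 40 at 120 h (14.2%). At the same times edgeR called none lower, while it called 5.53%, 6.87%, 6.67%, 6.33%, 14.1% and 14.7% of all genes lower. Cdc25c, lowest at 12 h with a log2 fold change of -0.77 ± 0.25, missed the threshold (Benjamini-Hochberg adjusted p in edgeR's quasi-likelihood test, 0.0504), but 8 of 14 alternative settings called it lower, with log2 fold changes of -0.90 to -0.65 over the 14. A gene was called at an adjusted p under 0.05 in edgeR's quasi-likelihood test across all genes, and ± after a log2 fold change is its standard error. The median log2 fold change of the members was 0.22 at 12 h, 0.31 at 18 h, 0.56 at 48 h, 0.54 at 72 h, 0.88 at 96 h and 1.11 at 120 h, while the median of all genes stayed between -0.07 and 0.03. Summed over the 50 genes, WT libraries held 10601 and 15128 CPM at 120 h, against 5098 and 6795 CPM at 0 h. In bulk RNA, fewer or more dividing cells cannot be told apart from less or more of each transcript per cell.

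The first group was Ccna2, Foxm1, Kif15, Ttk, Aurkb, Birc5, Top2a, Mki67, Anln and Kif23, the 10 called at 12 h. Nuf2, Spc25, Prc1 and Kif4 were first called at 18 h, 7 genes at 48 h with Plk1 and Tpx2 among them, 3 at 72 h, 11 at 96 h and 8 at 120 h, Cdk1 and Ccnb2 included. Ccnb1, Cdc25c, Kif18a, Mad2l1, Ndc80, Cenpf and Ncapg were called at no time. By mean level 32 members were highest at 120 h and 9 at 96 h, but in the first-table libraries alone 10 were highest at 120 h and 32 at 96 h. The second-table library at 120 h was above its partner in 48 of 50 members, by 1.52-fold in the median and by 3.52-fold for Ube2c, and without it 22 members were called at 120 h in place of 40. Without the first-table library at 0 h, which was the lower of its pair in 45 members, the counts were 2 at 12 h, 3 at 18 h, 4 at 48 h, 3 at 72 h and 19 at 96 h. Leaving out either library of 12 h gave 4 and 5, of 18 h 6 and 5, of 72 h 8 and 10, and the second-table one of 48 h gave 6.

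**Figure D2:**
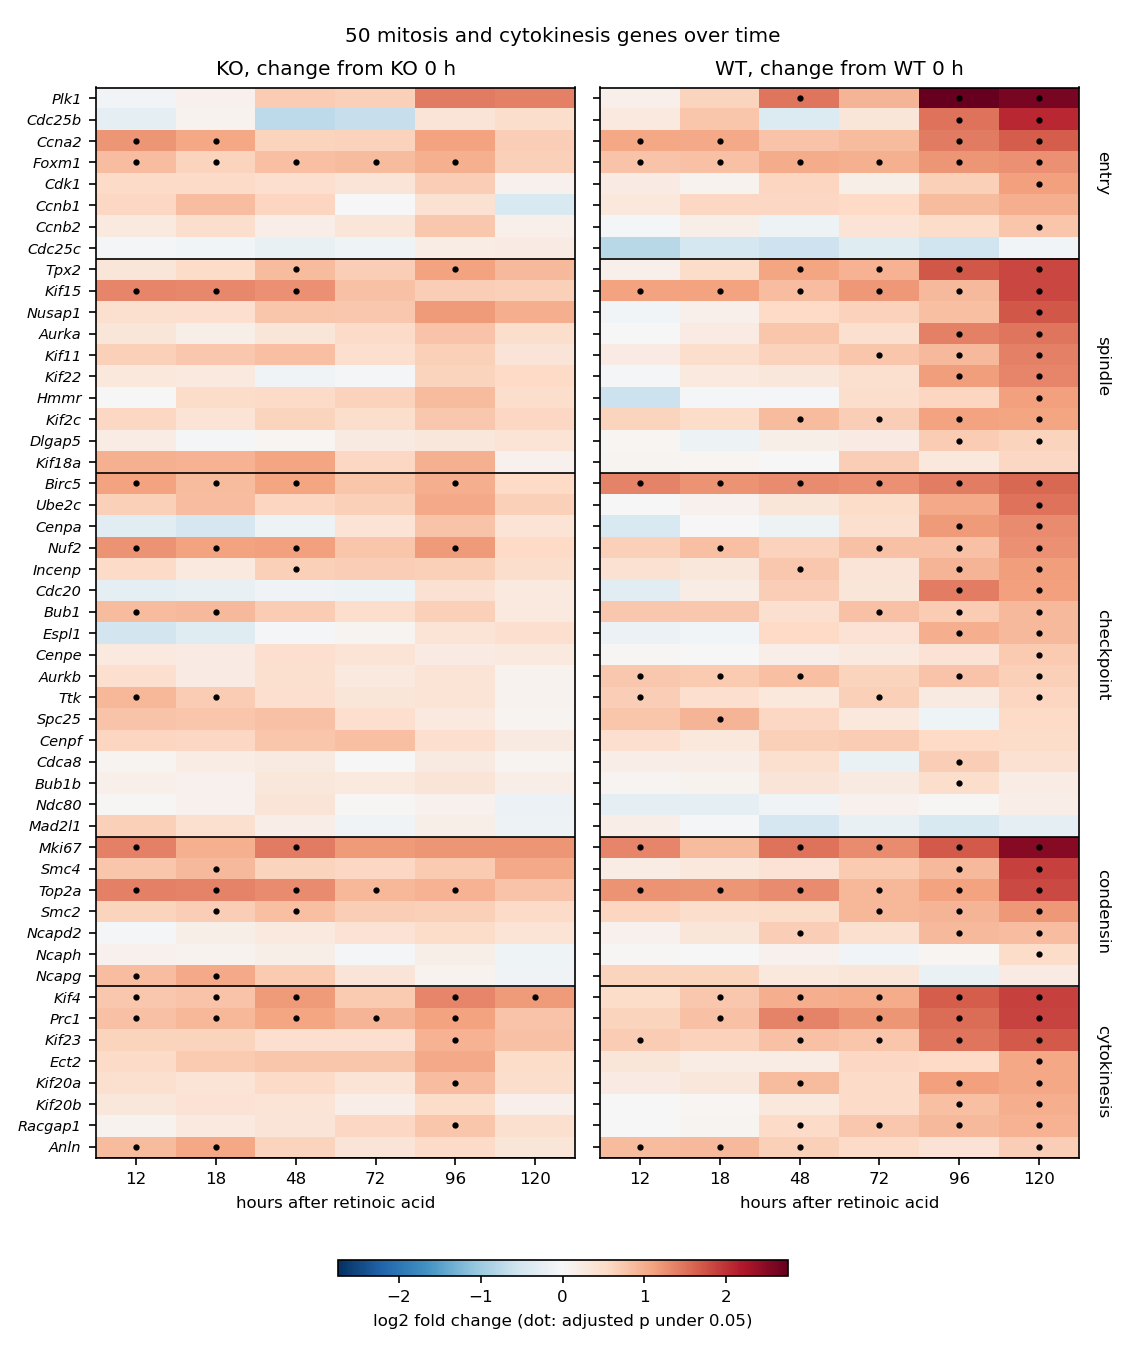
Log2 fold change from 0 h (colour) of the 50 genes at 12 to 120 h after retinoic acid, KO cells left and WT cells right, grouped by step and ordered by the WT change at 120 h. Black dots mark an adjusted p under 0.05 (edgeR), 40 of 50 in WT cells at 120 h and 1 in KO cells.

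KO cells also had an early set of higher genes, but fewer calls at later times. Against 0 h, 13 of 50 were called higher at 12 h (4.15% of genes tested), 14 at 18 h (3.82%), 11 at 48 h (1.76%), 3 at 72 h (0.348%), 10 at 96 h (1.27%) and 1, Kif4, at 120 h (0.912%), and none was called lower by edgeR, against 4.44%, 5.13%, 2.73%, 0.143%, 0.479% and 0.0456% of all genes at these times. Of the 13 called at 12 h in KO cells 8 (61.5%) were among the 10 called in WT cells (80% of those): Anln, Birc5, Ccna2, Foxm1, Kif15, Mki67, Top2a and Ttk. The median log2 fold change was 0.53 at 12 h, 0.51 at 18 h, 0.59 at 48 h, 0.47 at 72 h, 0.66 at 96 h and 0.45 at 120 h, against medians of all genes between -0.04 and 0.03. At an unadjusted p under 0.05 there were 20 members at 120 h and 33 at 96 h, so few calls at these times do not show that levels were those of 0 h. By mean level 25 members were highest at 96 h and 5 at 120 h, and with recovered reads 24 were at 96 h. In the first-table libraries alone 13 were highest at 12 h, 12 at 48 h and 14 at 96 h. The shallow library at 96 h was above its partner in 41 of 50 members.

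The counts in KO cells leaned on single libraries. Without the first-table and without the second-table library at 0 h they were 2 and 7 (12 h), 1 and 8 (18 h), 2 and 7 (48 h), 0 and 0 (72 h), 1 and 0 (96 h), and 0 and 0 (120 h). Leaving out the first-table or the second-table library of the later time gave 4 and 8 (12 h), 4 and 6 (18 h), 1 and 7 (48 h), and 1 and 0 (72 h). Without the shallow library the count was 0 at 96 h and 0 at 120 h, with recovered reads in its place it was 14 and 3, and with DESeq2 it was 16 and 5.

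**Figure D3:**
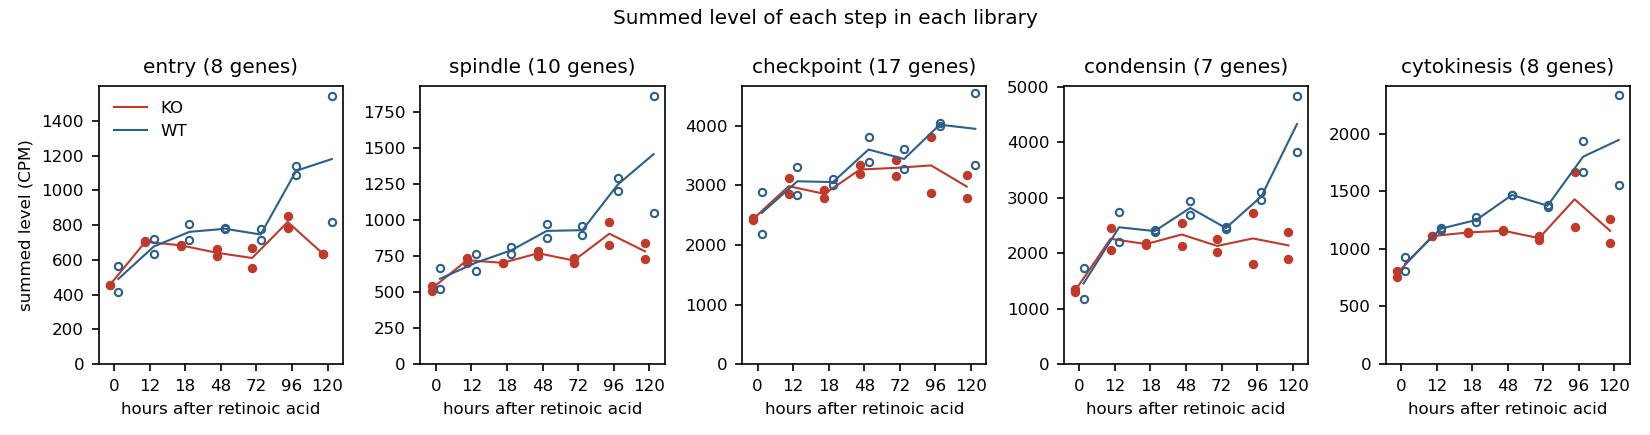
Summed level (CPM, y axis from 0) of the genes of each step in each library over time; filled red points are KO libraries, open blue points WT libraries, lines join group means. At 120 h both KO libraries lie below both WT libraries in every step.

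Between genotypes the members differed most at 120 h. KO cells had 29 of 50 genes called lower than WT cells at that time and 0 called higher, against 6.91% of all genes called lower and 8.54% higher. Of the calls over all genes 55.3% were higher in KO cells, and with upper quartile scaling 72.0%. The median log2 fold change of KO against WT was -0.83 at 120 h, with -0.02 for all genes, and 49 of 50 members were negative. Both KO libraries were below both WT libraries in 33 members (25.1% of all genes tested) and above in 0 (30.3%). By step, 3 of 8 entry, 7 of 10 spindle, 6 of 17 checkpoint, 6 of 7 condensation and 7 of 8 cytokinesis genes were called lower. The smallest p-values belonged to Top2a, Kif15 and Prc1. Only the members with values given in every library were followed singly under the 14 alternative settings, and of these Top2a, Kif15 and Foxm1 were called under all 14. Other called genes, such as Ncaph and Racgap1, were not followed in this way.

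At 0, 12, 18 and 48 h edgeR called 0 of the 50 different between KO and WT cells, with 8, 2, 2 and 4 at an unadjusted p under 0.05 and 0 by DESeq2 at each time, where 0%, 1.18%, 4.13% and 0.308% of all genes were called. At 72 h Kif15 and Ttk were called lower in KO cells (2.13% of genes lower) and at 96 h Prc1 was (1.15%). The median log2 fold change was -0.19 at 0 h, -0.05 at 12 h, -0.09 at 18 h, -0.16 at 48 h, -0.27 at 72 h and -0.33 at 96 h. Few calls do not mean equal levels. Both KO libraries were below both WT libraries in 14, 6, 28, 26, 25 and 20 members at these times. They were above in 6, 8, 4, 3, 3 and 2. The shares of all genes without overlap are not given here for these times. The 2 calls at 72 h became 0 without either KO library or the first-table WT library and 1 without the second-table one. The call at 96 h became 4 without the shallow KO library, 2 without the second-table WT library and 0 without either of the others.

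The number of calls at 120 h depended on single libraries. Without the second-table WT library, where members were highest, 6 were left, without the first-table KO library 7, and without the first-table WT library 39. Without the 3 shallow KO libraries 24 were called, and with recovered reads 36, the 29 among them. Markers of other cells moved with this comparison at 120 h, where 30.3% of all genes tested were higher in both KO libraries. Of 10 Sertoli markers 9 were (summed 272 and 210.4 CPM, against 79.9 and 109 CPM in WT cells). Clu alone held 178 and 127 CPM of these KO sums. Of 7 myoid and stromal markers 4 were (377 and 372 CPM, against 112 and 113 CPM), and Col1a1 held 303 and 320 CPM of the KO sums. At 0 h Sertoli markers summed to 164 and 79.0 CPM in KO cells, against 58.4 and 75.4 CPM in WT cells. Myoid and stromal markers then summed to 464 and 359 CPM, against 254 and 349 CPM. Of these 2 lists only Gata1 was at 0 in a library at 120 h, the second-table KO library. Other Sertoli markers were low too: Rhox5 had 3.32 and 2.91 CPM in KO cells, against 0.63 and 2.36 CPM in WT cells. With 1031189 reads in the second-table KO library, such an order can rest on few reads. Of 10 markers of undifferentiated spermatogonia 8 were higher in both KO libraries at 120 h (1532 and 1413 CPM, against 902 and 518 CPM). Of 6 markers of differentiating spermatogonia 2 were higher and 3 were lower. Among 9 spermatocyte and spermatid markers 1 was higher and 2 were lower (30.3% and 25.1% of all genes tested). They summed to 228 and 234 CPM in KO cells, against 268 and 434 CPM in WT cells, where Sycp1 held 228 and 378 CPM. Among 5 endothelium markers 2 were higher and 0 lower (26.5 and 21.3 CPM, against 15.2 and 8.21 CPM). Mitochondrial transcripts took 4.55% and 4.73% of reads in KO cells, against 2.48% and 3.84% in WT cells at 120 h. The part of these markers and of the mitochondrial share in the result was not tested.

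Whether the change from 0 h itself differed by genotype was tested as an interaction, and no member passed. At 120 h the KO change minus the WT change was negative in 48 of 50 members with a median of -0.65 (all genes -0.01), 24 had an unadjusted p under 0.05, 0 were called by edgeR and 1 by DESeq2, and 0.268% of all genes were called. Over all times together edgeR called 0 of 50 (15 at an unadjusted p under 0.05, 1 by DESeq2; 0.108% of genes called). Top2a had the smallest interaction p among the named members at 120 h, with -1.05 ± 0.28 (Benjamini-Hochberg adjusted p in edgeR's quasi-likelihood test, 0.101). Without the first-table WT library at 120 h, 9 members passed at that time and 2 over all times, and without the second-table WT library at 0 h 2 passed at 120 h. The 29 calls at 120 h are thus differences of level at that time. In a test of any change over time, 14 members were called in KO cells (15.8% of all genes) and 36 in WT cells (37.3%). The count in KO cells moved with the processing: it was 32 with KO libraries fitted alone and 27 with no filter on low counts, and 7 and 6 without the first-table and the second-table KO library at 0 h.

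**Figure D4:**
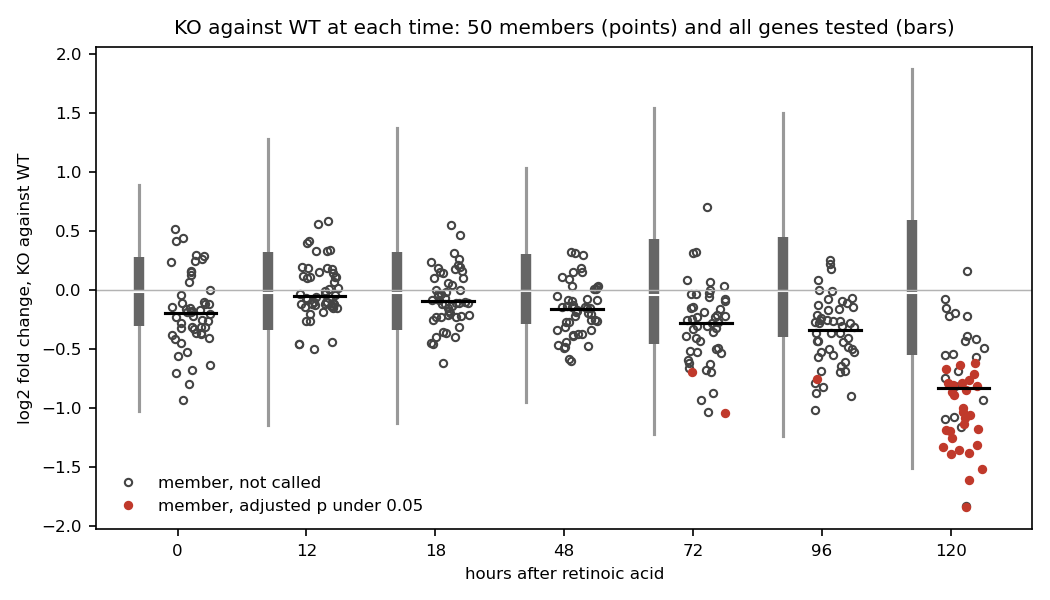
Log2 fold change of KO against WT (y axis) at each time for the 50 members (points, red where the adjusted p was under 0.05 by edgeR; black bar, median) beside all 17543 genes tested (thick grey bar, 25th to 75th percentile; thin line, 5th to 95th). The members' median is -0.05 at 12 h and -0.83 at 120 h.

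Averaged over the 7 times, 29 members were lower and 1, Cdca8, was higher in KO cells, against 20.1% and 17.4% of all genes. The size was modest, with a median log2 fold change of -0.24 (all genes -0.02) and a range of -0.80 for Kif15 to 0.39 for Cdca8. All 7 condensation genes and 7 of 8 cytokinesis genes were called lower, and so were 7 of 10 spindle, 7 of 17 checkpoint and 1 of 8 entry genes. Leaving out any 1 library gave 26 to 35 calls. This mean shares its libraries with the comparisons at single times.

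Of the 8 mitotic entry genes, 6 were called higher at 120 h in WT cells and 3 lower in KO than in WT cells, and the summed level of the step was 635 and 631 CPM in KO cells, against 816 and 1543 CPM in WT cells. Plk1 (chr7:122159439-122169873, plus strand) encodes the Polo-like kinase that drives entry, centrosome maturation and cytokinesis. KO libraries held Plk1 at 41.3 and 34.2 CPM (0 h), 34.7 and 35.8 (12 h), 35.1 and 43.8 (18 h), 53.2 and 66.4 (48 h), then 63.4 and 53.7 CPM (72 h), 88.1 and 124 (96 h), 100.2 and 101 (120 h). WT libraries held Plk1 at 23.4 and 37.6 CPM (0 h), 30.5 and 36.5 (12 h), 37.7 and 57.2 (18 h), 77.5 and 91.8 (48 h), then 67.7 and 45.8 CPM (72 h), 154 and 256 (96 h), 98.5 and 258 (120 h). All 4 WT values at 96 and 120 h lay above every earlier WT value, and at both times the second-table library was far the higher. The log2 fold change at 120 h was 1.39 ± 0.37 in KO cells, which missed the threshold (Benjamini-Hochberg adjusted p in edgeR's quasi-likelihood test, 0.0937), and 2.61 ± 0.38 in WT cells, a rise that held under all 14 alternatives. KO against WT at 120 h was -0.93 ± 0.36 and was not called. Both KO values lay just above the lower WT value.

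Foxm1 (chr6:128362967-128376146, plus strand) encodes the forkhead factor that activates genes of G2 and M phase. KO libraries held Foxm1 at 111 and 97.6 CPM (0 h), 188 and 181 (12 h), 155 and 149 (18 h), 187 and 173 (48 h), then 169 and 213 CPM (72 h), 163 and 258 (96 h), 161 and 175 (120 h). WT libraries held Foxm1 at 117 and 117 CPM (0 h), 213 and 187 (12 h), 225 and 195 (18 h), 248 and 227 (48 h), then 245 and 205 CPM (72 h), 279 and 263 (96 h), 279 and 263 (120 h). From 18 h on, both KO values were below both WT values except at 72 h, where the second-table KO library was above the lower WT library. Foxm1 rose by 12 h in both genotypes, by 0.85 ± 0.17 in KO cells and 0.78 ± 0.17 in WT cells on the log2 scale. At 120 h it was lower in KO cells (-0.79 ± 0.17; Benjamini-Hochberg adjusted p in edgeR's quasi-likelihood test, 0.00429). Ccna2, cyclin A2, was also called at 12 h in both genotypes (1.22 in KO cells and 1.06 in WT cells), and between them at 120 h it was not (-0.81 ± 0.31).

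Cdk1 (chr10:69335146-69352938, minus strand) encodes the kinase that cyclins A and B activate to start mitosis. KO libraries held Cdk1 at 32.4 and 39.9 CPM (0 h), 52.6 and 47.9 (12 h), 54.4 and 44.9 (18 h), 50.6 and 45.8 (48 h), then 49.4 and 40.8 CPM (72 h), 52.5 and 65.6 (96 h), 34.5 and 46.5 (120 h). WT libraries held Cdk1 at 33.6 and 43.0 CPM (0 h), 43.3 and 45.2 (12 h), 37.1 and 47.2 (18 h), 56.8 and 59.4 (48 h), then 29.9 and 54.1 CPM (72 h), 60.9 and 59.4 (96 h), 53.5 and 107 (120 h). The KO values at 120 h were close to those of 0 h, and both WT values at 120 h were above both KO values. Cdk1 was called higher at 120 h in WT cells (1.13 ± 0.28) and lower in KO than in WT cells (-1.13 ± 0.29). The first call was lost without the first-table WT library at 0 h or the second-table one at 120 h, and the other without that same 120 h library or without the first-table KO library at 120 h.

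Ccnb1 (chr13:100778650-100786570, minus strand), cyclin B1, is the main mitotic cyclin. KO libraries held Ccnb1 at 95.1 and 95.6 CPM (0 h), 144 and 134 (12 h), 175 and 154 (18 h), 151 and 129 (48 h), then 147 and 34.3 CPM (72 h), 188 and 51.4 (96 h), 107 and 23.3 (120 h). WT libraries held Ccnb1 at 93.9 and 153 CPM (0 h), 132 and 172 (12 h), 182 and 193 (18 h), 203 and 164 (48 h), then 179.8 and 173 CPM (72 h), 266 and 189 (96 h), 124 and 349 (120 h). The shallow KO libraries stood far below their partners, and the WT pair at 120 h was wide too. In the main fit no comparison of Ccnb1 was called, KO against WT at 120 h being -1.83 ± 0.71 (Benjamini-Hochberg adjusted p in edgeR's quasi-likelihood test, 0.0964). Under alternative settings Ccnb1 was called lower in KO cells in 4 of 14 at 120 h and in 11 of 37 for the mean over times. Against 0 h it was called higher at 120 h in WT cells in 3 of 14. Its sister Ccnb2 was called higher at 120 h in WT cells (0.77 ± 0.27) and lower in KO cells (-0.84 ± 0.29), with 34.7 and 51.4 CPM in KO cells, against 44.7 and 93.5 CPM in WT cells.

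The phosphatases that switch CDK1 on differed from each other. Cdc25b was called higher in WT cells at 96 h (1.49 ± 0.39) and 120 h (2.08 ± 0.39), and at 120 h it had 36.7 and 33.0 CPM in KO cells, against 35.6 and 110.3 CPM in WT cells, so that 1 WT library stood alone. KO libraries held Cdc25c at 25.1 and 35.5 CPM (0 h), 29.2 and 27.5 (12 h), 26.3 and 28.02 (18 h), 28.2 and 22.4 (48 h), then 31.3 and 21.3 CPM (72 h), 36.9 and 30.6 (96 h), 30.4 and 42.7 (120 h). WT libraries held Cdc25c at 39.5 and 45.3 CPM (0 h), 23.8 and 25.6 (12 h), 32.2 and 29.8 (18 h), 31.0 and 25.9 (48 h), then 36.7 and 29.0 CPM (72 h), 33.2 and 24.5 (96 h), 31.4 and 45.5 (120 h). In WT cells both values at 12 h were below both at 0 h, the difference that missed the threshold. The genotypes overlapped at 120 h, where the change from 0 h in WT cells was -0.08 ± 0.25 and was not called.

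**Figure D5:**
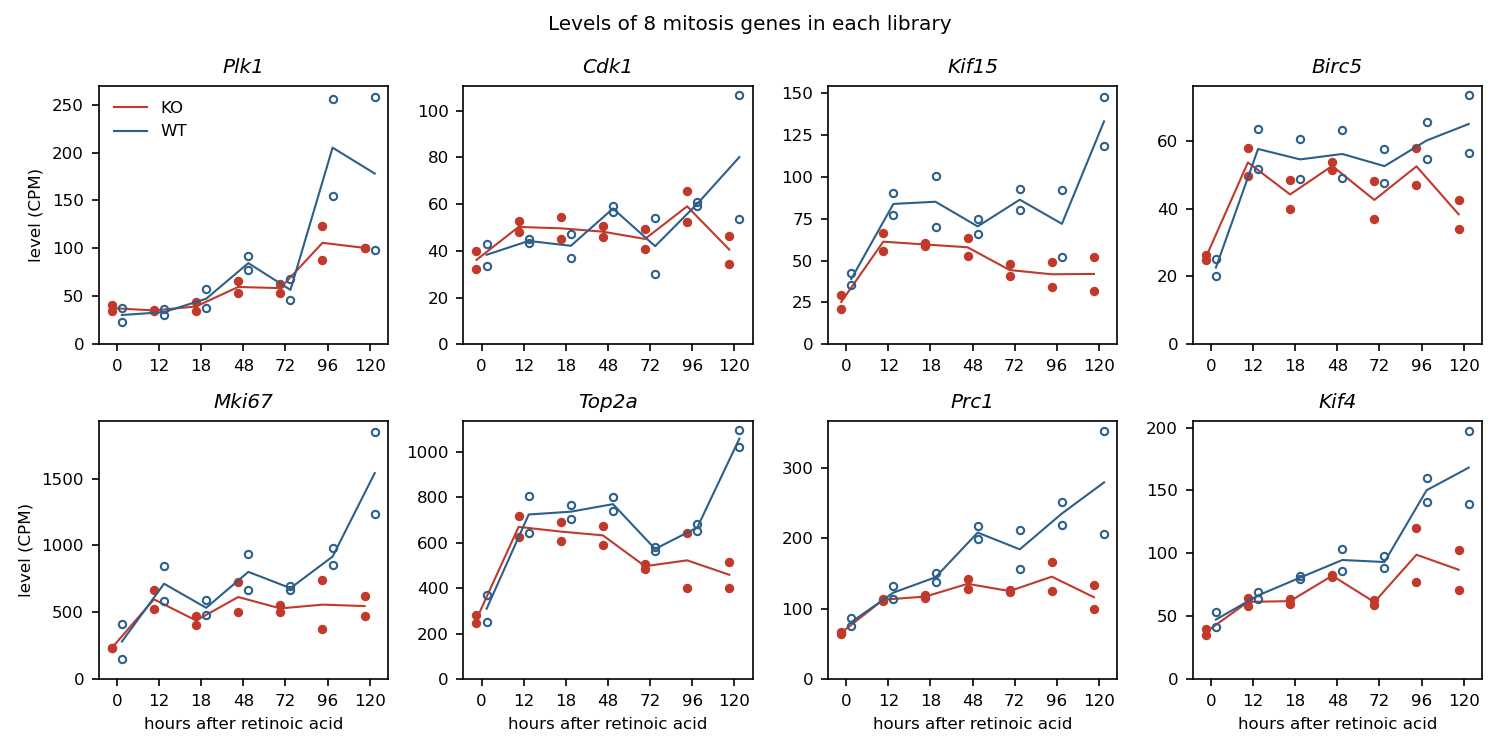
Level (CPM, y axis from 0) of 8 members in every library over time; filled red points are KO libraries, open blue points WT libraries, lines join the means of 2 libraries. Kif15 and Top2a are higher at 12 h than at 0 h in both genotypes, and at 120 h both KO values of each lie below both WT values, while Plk1 is near its 0 h level at 12 h and higher by 96 h.

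Of the 10 spindle genes, 9 were called higher at 120 h in WT cells and 7 lower in KO cells, and the step summed to 727 and 838 CPM in KO cells, against 1051 and 1862 CPM in WT cells. Kif15 (chr9:122951046-123018733, plus strand), a kinesin that helps to keep the spindle bipolar, was the 1 spindle gene called at 12 h. KO libraries held Kif15 at 21.1 and 29.3 CPM (0 h), 66.8 and 55.9 (12 h), 60.6 and 58.7 (18 h), 63.3 and 52.6 (48 h), then 40.5 and 48.2 CPM (72 h), 34.4 and 49.2 (96 h), 31.7 and 52.4 (120 h). WT libraries held Kif15 at 35.2 and 42.9 CPM (0 h), 90.7 and 77.1 (12 h), 100.3 and 70.1 (18 h), 74.7 and 66.2 (48 h), then 92.6 and 80.2 CPM (72 h), 92.0 and 51.9 (96 h), 119 and 148 (120 h). At each of the 7 times both KO values were below both WT values, and at 96 h the gap was small. KO against WT was -1.04 ± 0.27 at 72 h, -1.84 ± 0.28 at 120 h (Benjamini-Hochberg adjusted p in edgeR's quasi-likelihood test, 2.17e-04) and -0.80 ± 0.10 as the mean over times. The difference of its change from 0 h at 120 h, KO minus WT, was -1.17 ± 0.39 and was not called.

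Tpx2 (chr2:152847964-152895321, plus strand) encodes the activator of Aurora A on spindle microtubules. KO libraries held Tpx2 at 73.0 and 74.1 CPM (0 h), 94.3 and 85.8 (12 h), 103 and 96.8 (18 h), 142 and 118 (48 h), then 127 and 107 CPM (72 h), 152 and 168 (96 h), 124 and 154 (120 h). WT libraries held Tpx2 at 68.7 and 99.5 CPM (0 h), 81.9 and 103 (12 h), 112 and 130.3 (18 h), 159 and 199 (48 h), then 161 and 156 CPM (72 h), 301 and 247 (96 h), 196 and 383 (120 h). WT values at 96 and 120 h were above all KO values. Tpx2 was first called at 48 h in both genotypes, was 1.10 ± 0.25 at 96 h in KO cells and 1.85 ± 0.25 at 120 h in WT cells, and at 120 h was lower in KO cells (-1.18 ± 0.25). Aurka, the kinase it activates, was called higher in WT cells at 96 h (1.39 ± 0.28) and 120 h (1.47 ± 0.28) and not between genotypes at 120 h (-0.75 ± 0.29).

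Nusap1, which encodes a microtubule bundling protein, moved late. KO libraries held Nusap1 at 13.4 and 19.8 CPM (0 h), 26.2 and 16.8 (12 h), 22.9 and 20.1 (18 h), 27.3 and 26.9 (48 h), then 26.6 and 27.8 CPM (72 h), 37.2 and 37.2 (96 h), 27.0 and 41.7 (120 h). WT libraries held Nusap1 at 21.8 and 33.9 CPM (0 h), 19.8 and 32.7 (12 h), 29.6 and 32.7 (18 h), 37.0 and 45.2 (48 h), then 38.0 and 46.1 CPM (72 h), 56.5 and 41.2 (96 h), 57.9 and 117 (120 h). In WT cells both values at 120 h were above all earlier ones. It was lower in KO cells at 120 h (-1.51 ± 0.34). Kif11, the kinesin that pushes spindle poles apart, had 104 and 132 CPM in KO cells, against 194 and 359 CPM in WT cells at 120 h (-1.35 ± 0.26). Hmmr, a spindle pole protein gene, had 44.6 and 40.7 CPM in KO cells, against 48.6 and 118 CPM in WT cells at that time (-1.06 ± 0.32). Kif2c, which encodes a kinesin that takes microtubules apart at centromeres, had 139 and 144 CPM in KO cells, against 157 and 253 CPM in WT cells (-0.64 ± 0.20).

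Kif18a, a kinesin that damps chromosome movements, was the 1 spindle gene not called against 0 h at 120 h in WT cells. KO libraries held Kif18a at 13.8 and 25.2 CPM (0 h), 42.1 and 31.1 (12 h), 41.3 and 28.5 (18 h), 41.6 and 36.8 (48 h), then 27.2 and 29.6 CPM (72 h), 32.8 and 44.9 (96 h), 17.7 and 26.2 (120 h). WT libraries held Kif18a at 36.2 and 35.0 CPM (0 h), 34.2 and 40.9 (12 h), 41.3 and 33.9 (18 h), 33.7 and 37.5 (48 h), then 43.9 and 66.5 CPM (72 h), 61.3 and 24.8 (96 h), 36.0 and 64.8 (120 h). The WT values spread as widely within 96 and 120 h as between times. It was nonetheless lower in KO cells at 120 h (-1.38 ± 0.39), a call lost under 3 of 14 alternatives, among them leaving out the first-table KO or the second-table WT library.

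Of the 17 kinetochore and checkpoint genes, 11 were called higher at 120 h in WT cells and 6 lower in KO cells, and the step summed to 2784 and 3179 CPM in KO cells, against 3350.5 and 4553 CPM in WT cells. Birc5 (chr11:117849251-117855743, plus strand) encodes survivin of the chromosomal passenger complex, which corrects wrong attachments. KO libraries held Birc5 at 24.8 and 26.4 CPM (0 h), 57.8 and 49.5 (12 h), 48.5 and 39.8 (18 h), 53.8 and 51.4 (48 h), then 48.1 and 37.0 CPM (72 h), 47.0 and 58.0 (96 h), 34.0 and 42.7 (120 h). WT libraries held Birc5 at 20.2 and 25.03 CPM (0 h), 51.7 and 63.5 (12 h), 48.7 and 60.4 (18 h), 49.1 and 63.1 (48 h), then 47.6 and 57.5 CPM (72 h), 54.6 and 65.6 (96 h), 56.4 and 73.5 (120 h). All values from 12 h on were above both 0 h values of their genotype. Birc5 was called at all 6 later times in WT cells (1.36 ± 0.22 at 12 h) and at 4 in KO cells (1.10 ± 0.22 at 12 h). At 120 h it was lower in KO cells (-0.89 ± 0.22).

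Aurkb, the kinase of the same complex, was not called between genotypes at 120 h. KO libraries held Aurkb at 73.7 and 75.3 CPM (0 h), 98.8 and 103 (12 h), 82.2 and 83.4 (18 h), 93.2 and 104 (48 h), then 81.5 and 101 CPM (72 h), 90.1 and 106 (96 h), 63.5 and 102 (120 h). WT libraries held Aurkb at 56.1 and 53.3 CPM (0 h), 84.5 and 98.0 (12 h), 90.9 and 92.9 (18 h), 100.3 and 95.7 (48 h), then 67.5 and 95.8 CPM (72 h), 69.2 and 121 (96 h), 78.2 and 87.7 (120 h). The pairs of both genotypes overlapped there (-0.15 ± 0.22). In WT cells its change from 0 h was 0.75 ± 0.22 at 12 h and 0.66 ± 0.22 at 120 h. Incenp, the scaffold that binds it, had 211 and 275 CPM in KO cells, against 305 and 409.5 CPM in WT cells at 120 h and was called lower in KO cells (-0.67 ± 0.19).

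Cdca8, which encodes borealin of that complex, was the 1 member higher in KO cells over the 7 times. KO libraries held Cdca8 at 175 and 168 CPM (0 h), 159 and 194 (12 h), 179.6 and 200.3 (18 h), 175 and 219 (48 h), then 160.3 and 185 CPM (72 h), 171 and 247 (96 h), 152 and 216 (120 h). WT libraries held Cdca8 at 103 and 132 CPM (0 h), 126 and 137 (12 h), 115 and 157 (18 h), 153 and 168 (48 h), then 99.2 and 103 CPM (72 h), 129 and 251 (96 h), 119.9 and 181 (120 h). Both KO values were above both WT values from 0 to 72 h, and at 96 and 120 h the pairs overlapped. The mean difference was 0.39 ± 0.10 (Benjamini-Hochberg adjusted p in edgeR's quasi-likelihood test, 0.00268) and kept its call under all 37 alternatives, and no single time was called. In WT cells Cdca8 was called against 0 h at 96 h alone (0.69 ± 0.25).

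Bub1 encodes a checkpoint kinase of the kinetochore. KO libraries held Bub1 at 57.6 and 68.7 CPM (0 h), 116 and 107 (12 h), 113 and 111 (18 h), 100.1 and 97.2 (48 h), then 87.3 and 88.9 CPM (72 h), 86.2 and 117 (96 h), 62.0 and 96.0 (120 h). WT libraries held Bub1 at 89.2 and 92.8 CPM (0 h), 146 and 156 (12 h), 174 and 136 (18 h), 141 and 106 (48 h), then 152 and 157 CPM (72 h), 204 and 89.1 (96 h), 162 and 163 (120 h). At 120 h both KO values were far below the WT values, which were nearly equal. At 12 h it was called higher in KO cells (0.86 ± 0.26), a call lost in 5 of 14 alternative settings. The change at 12 h in WT cells (0.74 ± 0.26) was not called but was in 3 of 14, and the difference between these changes was not called (0.12 ± 0.36). Bub1 was called higher at 72 h in WT cells (0.80 ± 0.26), and was lower in KO cells at 120 h (-1.18 ± 0.27). Its relative Bub1b was not called between genotypes at 120 h (-0.08 ± 0.16).

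Ttk encodes MPS1, the kinase that starts checkpoint signalling. KO libraries held Ttk at 56.5 and 76.1 CPM (0 h), 121 and 121 (12 h), 107 and 97.9 (18 h), 93.2 and 83.1 (48 h), then 81.7 and 83.4 CPM (72 h), 80.2 and 94.1 (96 h), 63.5 and 81.5 (120 h). WT libraries held Ttk at 81.9 and 85.4 CPM (0 h), 125 and 140.1 (12 h), 127 and 109 (18 h), 113 and 91.7 (48 h), then 121 and 134 CPM (72 h), 117 and 82.5 (96 h), 113 and 130.1 (120 h). Both KO values were below both WT values at every time except 48 and 96 h, where the genotypes overlapped. Ttk was higher at 12 h in both genotypes (0.91 ± 0.19 in KO cells and 0.68 ± 0.19 in WT cells). It was lower in KO cells at 72 h (-0.69 ± 0.19) and 120 h (-0.87 ± 0.19).

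Mad2l1, which encodes the checkpoint effector MAD2, had the lowest change of any member at 120 h in WT cells (-0.24 ± 0.31, not called). KO libraries held Mad2l1 at 58.1 and 81.9 CPM (0 h), 112 and 102 (12 h), 96.4 and 84.1 (18 h), 85.0 and 69.4 (48 h), then 74.7 and 51.9 CPM (72 h), 81.0 and 73.3 (96 h), 59.7 and 69.8 (120 h). WT libraries held Mad2l1 at 76.6 and 93.9 CPM (0 h), 73.8 and 119 (12 h), 73.4 and 96.3 (18 h), 55.04 and 70.2 (48 h), then 47.9 and 97.2 CPM (72 h), 68.5 and 58.7 (96 h), 48.6 and 89.7 (120 h). The pairs overlapped between genotypes at 120 h. In the NDC80 complex, which grips microtubules, Nuf2 was called at 12 h in KO cells (1.23 ± 0.28), at 18 h in WT cells (0.83 ± 0.27) and between genotypes at 120 h (-1.33 ± 0.29), while Ndc80 itself was called nowhere (0.18 ± 0.20 at 120 h in WT cells). Cdc20 and Ube2c, which serve the anaphase-promoting complex, were 1.13 ± 0.28 and 1.49 ± 0.51 at 120 h in WT cells, where Ube2c had 26.2 and 92.3 CPM.

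All but 1 of the 7 condensation genes were called higher at 120 h in WT cells and all but 1 lower in KO cells, and the step summed to 1894 and 2388 CPM in KO cells, against 3828 and 4834 CPM in WT cells. Mki67 (chr7:135689784-135716361, minus strand) encodes Ki-67, a proliferation marker that coats mitotic chromosomes. KO libraries held Mki67 at 236 and 230.1 CPM (0 h), 667 and 525 (12 h), 407 and 469 (18 h), 728 and 499 (48 h), then 504 and 553 CPM (72 h), 375 and 738 (96 h), 468 and 624 (120 h). WT libraries held Mki67 at 149 and 413 CPM (0 h), 584 and 843 (12 h), 476 and 589.5 (18 h), 668 and 936 (48 h), then 662 and 697 CPM (72 h), 978 and 855 (96 h), 1234 and 1846 (120 h). Both WT values at 120 h were above every other value of either genotype, and the WT pair at 0 h was wide. The change from 0 h was 1.39 ± 0.38 at 12 h in KO cells, 1.34 ± 0.38 at 12 h in WT cells and 2.50 ± 0.39 at 120 h in WT cells. KO against WT at 120 h was -1.61 ± 0.38 (Benjamini-Hochberg adjusted p in edgeR's quasi-likelihood test, 0.00942).

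Top2a (chr11:98992943-99024189, minus strand) encodes the topoisomerase that untangles sister DNA. KO libraries held Top2a at 246 and 281 CPM (0 h), 716 and 623 (12 h), 691 and 606 (18 h), 674 and 589.8 (48 h), then 485 and 508 CPM (72 h), 400.0 and 644 (96 h), 400.4 and 517 (120 h). WT libraries held Top2a at 250.2 and 368 CPM (0 h), 643 and 804 (12 h), 767 and 705 (18 h), 802 and 737 (48 h), then 579 and 565 CPM (72 h), 653 and 679.8 (96 h), 1021 and 1093 (120 h). Both genotypes were high by 12 h, and at 120 h the WT values were the highest of all and both KO values were below every WT value from 12 h on. The change at 12 h was 1.38 ± 0.20 in KO cells and 1.23 ± 0.20 in WT cells. At 120 h Top2a was lower in KO cells (-1.31 ± 0.20; Benjamini-Hochberg adjusted p in edgeR's quasi-likelihood test, 2.17e-04).

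Among the condensin subunits, the core ATPase Smc4 had 207 and 286 CPM in KO cells, against 429.5 and 611 CPM in WT cells at 120 h (-1.19 ± 0.26). Its partner Smc2 had 144 and 191 CPM in KO cells, against 244 and 299 CPM in WT cells (-0.81 ± 0.21). Ncaph, the subunit that closes the ring, had 66.0 and 78.6 CPM in KO cells, against 113 and 117 CPM in WT cells (-0.79 ± 0.16), and Ncapd2 had 541 and 615 CPM in KO cells, against 682 and 753 CPM in WT cells, a difference that was not called (-0.41 ± 0.17). KO libraries held Ncapg at 68.6 and 83.4 CPM (0 h), 155 and 111 (12 h), 149 and 147 (18 h), 131 and 111 (48 h), then 86.9 and 108 CPM (72 h), 65.9 and 103 (96 h), 66.8 and 77.6 (120 h). WT libraries held Ncapg at 82.5 and 111 CPM (0 h), 141 and 152 (12 h), 158 and 143 (18 h), 123 and 116 (48 h), then 107 and 129.9 CPM (72 h), 103 and 67.9 (96 h), 104 and 115 (120 h). Ncapg, another condensin subunit, was called against 0 h at 12 and 18 h in KO cells (0.85 and 1.03) and at no time in WT cells (0.60 and 0.60), but the difference of these changes was not called. KO against WT at 120 h was -0.71 ± 0.23 for Ncapg.

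All 8 cytokinesis genes were called higher at 120 h in WT cells and 7 lower in KO cells, the exception being Kif20a (-0.43 ± 0.20), and the step summed to 1053 and 1259 CPM in KO cells, against 1556 and 2335 CPM in WT cells. Prc1 (chr7:80294450-80316259, plus strand) encodes the protein that bundles the central spindle. KO libraries held Prc1 at 63.9 and 67.5 CPM (0 h), 111 and 114 (12 h), 119 and 116 (18 h), 143 and 128 (48 h), then 127 and 123 CPM (72 h), 124 and 166 (96 h), 99.5 and 133 (120 h). WT libraries held Prc1 at 75.5 and 86.2 CPM (0 h), 114 and 132 (12 h), 138 and 151 (18 h), 199 and 217 (48 h), then 157 and 212 CPM (72 h), 219 and 251 (96 h), 206 and 352 (120 h). At each time from 18 h on both KO values were below both WT values. Prc1 was called at 5 times in KO cells, up to 1.11 ± 0.21 at 96 h, and at 5 in WT cells, up to 1.85 ± 0.21 at 120 h. KO against WT was -0.75 ± 0.21 at 96 h and -1.39 ± 0.21 at 120 h (Benjamini-Hochberg adjusted p in edgeR's quasi-likelihood test, 2.37e-04).

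Kif4 (chrX:100625737-100727214, plus strand), the kinesin partner of PRC1, was the 1 member called at 120 h in KO cells. KO libraries held Kif4 at 39.7 and 35.0 CPM (0 h), 64.5 and 58.3 (12 h), 60.1 and 63.9 (18 h), 83.1 and 81.3 (48 h), then 63.2 and 59.3 CPM (72 h), 77.5 and 120.3 (96 h), 71.2 and 103 (120 h). WT libraries held Kif4 at 41.1 and 53.5 CPM (0 h), 63.8 and 69.3 (12 h), 81.7 and 79.8 (18 h), 85.8 and 104 (48 h), then 97.5 and 88.7 CPM (72 h), 159.6 and 141 (96 h), 139 and 197 (120 h). At 120 h both KO values were above those of 0 h and below both WT values. The change from 0 h at 120 h was 1.16 ± 0.22 in KO cells and 1.89 ± 0.21 in WT cells, and KO against WT was -1.09 ± 0.21.

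Anln, which encodes anillin of the contractile ring, was among the early genes. KO libraries held Anln at 106 and 134 CPM (0 h), 213 and 214 (12 h), 266 and 214 (18 h), 172 and 186 (48 h), then 156 and 148 CPM (72 h), 166 and 183 (96 h), 135 and 171 (120 h). WT libraries held Anln at 152 and 168 CPM (0 h), 332 and 252 (12 h), 307 and 296 (18 h), 237 and 267 (48 h), then 227 and 224 CPM (72 h), 253 and 164 (96 h), 226 and 267 (120 h). KO values were below WT values at every time except 96 h, where the pairs overlapped. Its change at 12 h was 0.87 ± 0.20 in KO cells and 0.88 ± 0.20 in WT cells, and KO against WT at 120 h was -0.80 ± 0.20. Kif23 and Racgap1 form centralspindlin, and at 120 h Kif23 had 169 and 165 CPM in KO cells, against 229.5 and 391 CPM in WT cells and was called lower in KO cells. Racgap1 had 129.7 and 144 CPM in KO cells, against 175 and 216 CPM in WT cells (-0.62 ± 0.15). Ect2, the exchange factor that centralspindlin recruits, had 55.1 and 67.9 CPM in KO cells, against 108 and 160.3 CPM in WT cells (-1.25 ± 0.30). Kif20b, a kinesin of the midbody, had 105 and 108 CPM in KO cells, against 158 and 247 CPM in WT cells (-1.03 ± 0.23).

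Of 109 further mitosis genes, 48 were called higher and 1 lower at 120 h in WT cells (14.2% and 14.7% of all genes). Their median log2 fold change was 0.53 (all genes -0.07). At that time 1 was higher and 38 were lower in KO than in WT cells (8.54% and 6.91% of all genes), with a median of -0.55 (all genes -0.02). Melk, a mitotic kinase gene, changed by 1.74 ± 0.18 at 120 h in WT cells and was lower in KO cells at 72, 96 and 120 h (-0.97, -0.72 and -1.03). Casc5, the kinetochore scaffold, was lower in KO cells at 120 h (-1.60 ± 0.29), and so was Sgol2, a shugoshin that guards centromeric cohesion (-1.13 ± 0.24). Ckap2l, a spindle protein gene, rose in KO cells at 96 h (2.02 ± 0.31) and 120 h (1.77 ± 0.31), and in WT cells at 120 h by 2.58 ± 0.30. Fbxo5, which encodes an inhibitor of the anaphase-promoting complex, rose by 12 h in both genotypes, and its change at 120 h in WT cells was 1.72 ± 0.24. In the list of 45 DNA replication genes 27 were called higher at 12 h in KO cells and 25 in WT cells (4.15% and 5.36% of all genes), against 13 and 10 of the 50 members. At 120 h 1 was called higher in KO cells and 32 in WT cells (0.912% and 14.2% of all genes). In KO against WT cells 19 were lower (6.91% of all genes), with a median of -0.53 (all genes -0.02).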

How the data were processed

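Sorted PIWIL2-eGFP positive germ cells of 28 libraries, 2 in each of 14 groups, were measured by polyA RNA sequencing on an Ion Proton. Bowtie, TopHat and Cufflinks with mm10 are named in the submitters' processing notes, without versions. The deposited tables hold whole-number counts of reads for each gene symbol, and further ones by the authors hold CPM, judged from the values, although they are named for another unit. Of 28 CPM columns, 25 matched a count column within 0.001 CPM, KO columns matching the count table with the other number. The other 3, KO at 72, 96 and 120 h, matched none, and 100% of their values were whole reads within 0.1 read once rescaled, so those reads served as an alternative. Rows that named no gene, present in the WT columns of a count table, were left out, the largest being reads with no feature at 27.1% to 33.1%.

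The tests used edgeR 4.0.16 under R 4.3.3 (scaling by TMM, filterByExpr, 14 group means, robust quasi-likelihood, 17543 genes), with Benjamini-Hochberg adjustment over all genes and a call at 0.05. The tests ran first on simulated counts with known changes. DESeq2 1.42.0, other scalings, no filter, a replicate block, recovered reads and leaving out each library were alternatives. Genes were placed with GENCODE M21 on GRCm38, promoters with RefSeq on GRCm38.p6. Values in every library are given for the members with the largest and smallest WT change at 120 h in each step, for fixed anchors, and for up to 10 members by smallest p between genotypes. From the other mitosis genes up to 6 a comparison were named by p. The 50 members, the lists and these rules were chosen with earlier results of these data known. Comparisons with 0 h within a genotype share its 0 h libraries.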

Additional observations from a re-analysis of the deposited data

How the results depend on the processing

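Counts below are of members called, out of 50. Each single count differed from the reported one by more than 1.5 times, and ranges over left-out libraries are given whole. Single genes were followed only for the members with values given in every library, in chosen comparisons. Of their results 2047 stayed on their side of the threshold, 140 lost a call and 60 gained one. No called change reversed its sign, but uncalled ones did. Ccnb1 at 96 h in KO cells had a log2 fold change of 0.42, and of -1.01 in its lowest alternative. Fitting 1 genotype only gave 23, 22, 21, 7, 22 and 7 in KO cells at 12, 18, 48, 72, 96 and 120 h, 32 for any change over time in KO cells, and 5, 5, 10 and 8 in WT cells at 12, 18, 48 and 72 h. DESeq2 gave 5, 16 and 5 in KO cells at 72, 96 and 120 h, 5 between genotypes at 96 h, and 1 and 1 for the interaction at 120 h and over all times. Fitting the libraries of that time only gave 0, 0 and 7 between genotypes at 72, 96 and 120 h. Library totals gave 2 in KO cells at 120 h and 1 and 0 between genotypes at 72 and 96 h, and upper quartile scaling gave 0 and 0 for these. With no filter the counts were 5 and 6 in KO cells at 72 and 120 h, 5 and 6 between genotypes at 72 and 96 h, 1 and 5 for the interaction at 96 and 120 h, 8 over all times and 27 for any change in KO cells. Recovered reads gave 3 in KO cells at 120 h, and 4 and 2 between genotypes at 72 and 96 h. Without the 3 shallow KO libraries 0, 0 and 0 were called in KO cells at 72, 96 and 120 h, and 0 and 3 between genotypes at 72 and 96 h. Leaving out 1 library at a time gave 2 to 10, 3 to 14, 4 to 15, 3 to 16, 19 to 34 and 22 to 41 in WT cells over the 6 times, 2 to 8, 1 to 8, 1 to 7, 0 to 1, 0 to 7 and 0 to 1 in KO cells, 0 to 1, 0 to 4 and 6 to 39 between genotypes at 72, 96 and 120 h, 26 to 35 for the mean, 0 to 9 and 0 to 2 for the interaction at 120 h and over all times, and 6 to 13 and 30 to 41 for any change in KO and WT cells. Upper quartile scaling moved the median of all genes by -0.12 at 120 h in WT cells and by 0.11 for KO against WT at 120 h, where the share of calls that were higher was 55.3% with TMM, 68.5% with library totals and 72.0% with upper quartiles. That share was 54.8%, 70.2% and 77.8% between genotypes at 72 h, 49.1% with TMM and 38.7% with upper quartiles at 120 h in WT cells, and with DESeq2 58.9% in place of 72.6% at 96 h in KO cells and 61.3% in place of 74.2% between genotypes at 96 h. The cause of these changes was not tested, and libraries of about 1000000 reads limit the KO comparisons from 72 h on.

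The labels name no source shared by libraries of 1 number, and KO and WT libraries of 1 number did not deviate together: their differences correlated at -0.39 to 0.28 (median -0.15 over 49 pairs of groups). Among WT groups they did (0.13 to 0.68, median 0.50 over 21 pairs), and among KO groups the correlations were -0.27 to 0.79 (median 0.11), a hint from the data, not the design. With the replicate block 6 members were called in KO cells at 120 h, and 4 and 3 between genotypes at 72 and 96 h. A block within genotype gave 16 in WT cells at 12 h, 20, 18, 7, 19 and 8 in KO cells at 12, 48, 72, 96 and 120 h, 7 and 6 between genotypes at 72 and 96 h, 3 and 2 for the interaction at 120 h and over all times, and 22 for any change in KO cells. A block with KO libraries numbered as in the CPM tables, chosen after seeing the data, gave 5 in KO cells at 120 h and 4 between genotypes at 96 h.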
